A study of Homo sapiens with 6 samples.

Results

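MiaPaCa-2, an established human pancreatic ductal adenocarcinoma (PDAC) line, was kept for 48 h in low glucose (2.5 mM, 3 libraries) or in control medium (25 mM, 3 libraries), and the mRNA of 31 genes of sterol metabolism is described here out of the 60668 genes listed. The 31 were taken by name, not by their values, although earlier results of these data were known. They comprise 19 enzymes of the route from acetyl-CoA to cholesterol. The others are 5 genes of the machinery that controls the sterol regulatory element-binding proteins (SREBPs), and 7 genes of sterol transport, esterification and export. The control concentration is from the series' design text, whereas the treatment text of all 6 samples gives 2.5 mM and the control samples are labelled as untreated. The labels name no allele and no agent besides glucose in either group, and a single cell line stands for the tumour type. All 31 identifiers were found in the table, and 30 had a mean normalized count of at least 1 and were tested.

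Cells build cholesterol from acetyl-CoA. The early enzymes make mevalonate and the isoprenoid farnesyl diphosphate, the middle ones close the sterol ring as lanosterol, and the late ones trim lanosterol to cholesterol. SREBPs are transcription factors held in the endoplasmic reticulum membrane by the escort protein SCAP and by INSIG proteins while sterols are plentiful. When sterols fall, SCAP takes them to the Golgi, where proteases release the active part, which raises transcription of the synthesis enzymes and of INSIG1. Sterol-activated liver X receptors (LXRs) act on the opposite side and raise the exporters ABCA1 and ABCG1 and the ubiquitin ligase MYLIP.

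Values are read counts over the size factor of their library, here called normalized counts. Each triplet below runs from the shallowest to the deepest library: 9741183, 10126218 and 10190154 reads in control, and 10595408 (low glucose replicate 2), 10841656 (replicate 1) and 13733477 (not numbered) in low glucose. The control libraries differed more among themselves than the low-glucose libraries did. For genes whose mean reached 20, the median absolute log2 deviation from the other libraries of the group was 0.107 to 0.198 for controls, against 0.0863 to 0.0951 under low glucose. The keratins KRT8, KRT18 and KRT19 and vimentin, listed as markers of the line, were abundant in all 6 libraries but moved with the groups. KRT8 was 39760 to 46960 for controls against 20550 to 21780 under low glucose, KRT18 20610 to 25720 against 13150 to 13990, KRT19 3258 to 4010 against 1925 to 1997 and VIM 57840 to 65870 against 79310 to 82510. EPCAM had at most 1 read. Of the markers of other cell types, 2 of 5 for fibroblasts, 1 of 4 for leukocytes and 1 of 3 for endothelium reached 10 reads in a library. PTPRC, CD3E and DCN had 0 reads throughout, and the summed endothelial markers, nearly all CDH5, were 157 to 192 for controls against 9.88 to 12.1 under low glucose. The fibroblast sum was 34.8 to 49.0 against 11.9 to 28.04 and the leukocyte sum, all CD14, 23.5 to 48.2 against 10.6 to 21.2. The part of these in the results below was not tested. The values are relative to the RNA of each library, so that fewer transcripts per cell and more RNA of other genes cannot be told apart.

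Across the tested sterol genes, 15 of 30 had an adjusted p under 0.05 (limma, Benjamini-Hochberg over 21101 genes), with 4 higher and 11 lower under low glucose. SE below stands for the standard error of a log2 fold change. The same threshold was passed by 30.9% of all genes tested, with 14.7% higher and 16.2% lower. Among the 13769 genes whose mean reached 20, a level that all 30 exceeded, 42.7% passed, 2573 as higher and 3308 as lower. The share of sterol genes that changed thus lay not far from that of other well-measured genes. The low-glucose and control libraries did not overlap for 19 of the 30, where this was so for 43.9% of all genes tested and for 7643 of the 13769 genes whose mean reached 20. Without low glucose replicate 1 the count of sterol genes that passed was 9, and with no variance trend it was 6. The median log2 fold change was -0.13 over the 30, 0.05 over all genes tested and -0.02 over those whose mean reached 20. When libraries were instead scaled to their total reads, 6 were higher and 9 lower, and the median of all genes tested moved from 0.05 to 0.13. The changes were modest, within 0.5 on the log2 scale for all 19 enzymes, and they did not run in 1 direction along the pathway. Without low glucose replicate 1, however, 0 enzymes passed as higher and 4 as lower. With no variance trend, 0 passed as higher and 3 as lower.

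**Figure D1:**
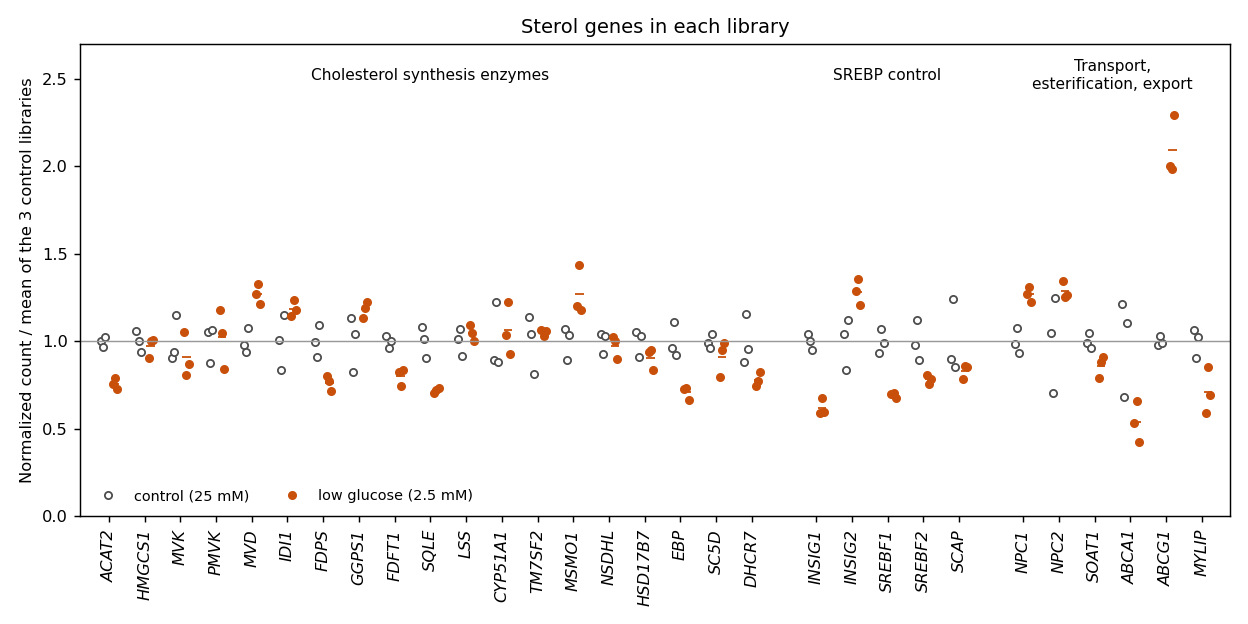
Normalized count of 30 sterol genes in each library, relative to its own control mean (y axis). Open points are control libraries, filled points low-glucose libraries and short lines low-glucose means. ABCG1 lies highest, at a fold of 2.07 by limma, INSIG1 and ABCA1 lie lowest, and most enzymes stay near 1.

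The levels in control medium spanned a wide range. The exon length used below merges all annotated exons of a gene, from 1002 bp for PMVK to 11343 bp for ABCA1. The order of genes per kilobase therefore depends on the annotation as well. Per kilobase of exon, the highest were ACAT2, a cytosolic thiolase that opens the pathway, with 461 ± 13 normalized counts per kb (SD, n = 3), and FDPS, the farnesyl diphosphate synthase, with 459 ± 41.9 (SD, n = 3). SREBF1 followed with 327 ± 22.7 (SD, n = 3) and was above SREBF2 with 169 ± 19.7 (SD, n = 3). The lowest of the tested genes were ABCG1 with 9.18 ± 0.259 (SD, n = 3), SC5D with 8.76 ± 0.367 (SD, n = 3) and ABCA1 with 3.59 ± 1 (SD, n = 3). Of the 30 pairs of neighbours in this order, 22 overlapped in their control libraries and are not separated, among them ACAT2 with FDPS and ABCG1 with SC5D. Of the 31 genes, 16 were above 100 normalized counts per kb and 4 below 10. STARD4, a soluble carrier of cholesterol between membranes, had 1 read in 1 control library and 0 reads in the other 5 libraries, and a count of 0 allows up to 0.218 to 0.308 CPM, depending on the library (3 reads over its total, counting error only). STARD4 was therefore not tested.

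Of the 19 synthesis enzymes, 6 fell, 2 rose and 11 did not pass the threshold. The share that passed, 42.1%, was close to the 42.7% of all genes whose mean reached 20. The median log2 fold change was -0.04, and 0.04 when libraries were scaled by library size. The summed level of the 19, in normalized counts per kb, was 2855, 2729 and 2860 in the control libraries and 2559, 2541 and 2376 in the low-glucose libraries. It was lower in every low-glucose library, a ratio of 0.885 between the means. The same ratio was 0.884 for the 68 further sterol genes described below. ACAT2 and FDPS, the highest per kb, weigh most in the sum of the enzymes. Of the 6 enzymes with the highest control levels per kb, ACAT2, FDPS, FDFT1 and EBP fell, and PMVK and NSDHL did not pass.

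In the arm from acetyl-CoA to farnesyl diphosphate, 2 of 7 enzymes fell and 1 rose. ACAT2 (chromosome 6, 159762045 to 159779112, plus strand of hg38) had normalized counts of 1222, 1181 and 1250 in the control libraries and 919.7, 964 and 888 in the low-glucose libraries. All low-glucose values lay below all control values, with a log2 fold change of -0.40 (SE 0.0756, limma adjusted p = 0.00107). ACAT2 shares 454 bp of exon with TCP1 on the other strand, a gene with a mean of 5649 normalized counts whose log2 fold change was -0.40 as well, and how much of this is shared reads was not tested. In all, exons of 14 of the 31 genes overlap those of an opposite-strand gene. The libraries were strand-specific, but whether the counting used strand is not given in the sources used here. HMGCS1, which makes HMG-CoA for the mevalonate route, had 515, 487 and 457 in the control libraries and 441, 487 and 489.5 in the low-glucose libraries. These values overlapped, and the log2 fold change of -0.04 (SE 0.0903, limma adjusted p = 0.768) had a 95% interval of -0.23 to 0.15.

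The kinases that follow, MVK and PMVK, did not pass either, with log2 fold changes of -0.13 and 0.03 and 95% intervals of -0.42 to 0.15 and -0.26 to 0.31. MVD, the decarboxylase that turns mevalonate diphosphate into isopentenyl diphosphate, went the other way. Its normalized counts were 465, 447 and 512 in the control libraries and 604, 631 and 577 in the low-glucose libraries. Every low-glucose library was higher, with a log2 fold change of 0.35 (SE 0.0884, limma adjusted p = 0.00789). The adjusted p of MVD was 0.00158 to 0.06 over 18 alternatives, and MVD did not pass when low glucose replicate 1 was left out (0.0567), in the fit with no variance trend (0.0600) or with the GC trend removed (0.0517). IDI1, the isomerase of isopentenyl diphosphate, had 384, 319 and 438 in the control libraries and 435, 469 and 449 in the low-glucose libraries. The lowest low-glucose value lay below the highest control value, and the log2 fold change of 0.26 (SE 0.112, limma adjusted p = 0.0963) did not pass, whereas it passed without the control library of 10190154 reads (0.00982), with scaling by library size (0.0409) and with quantile normalization (0.0491, range over 18 alternatives 0.00982 to 0.27).

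FDPS joins these units to farnesyl diphosphate and had normalized counts of 1697, 1554 and 1865 in the control libraries and 1366, 1322 and 1221 in the low-glucose libraries. All low-glucose values were lower, with a log2 fold change of -0.39 (SE 0.0847, limma adjusted p = 0.00308). This call was lost with quantile normalization (0.116) and with no variance trend (0.0618), in a range of 5.07e-06 to 0.116 over 18 alternatives. FDPS shares 693 bp of exon with RUSC1-AS1 on the other strand, which had a mean of 1124 normalized counts and fell by 0.30 on the log2 scale. GGPS1 leads to geranylgeranyl diphosphate, a lipid anchor of small GTPases, and is thus a branch away from sterols. Its log2 fold change was 0.25 (limma adjusted p = 0.212), with values of 130, 94.7 and 119.8 in the control libraries and 130.4, 137 and 141 in the low-glucose libraries that did not overlap. GGPS1 shares 1422 bp of exon with another annotated gene on its own strand, which had 29 to 49 reads.

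Between farnesyl diphosphate and lanosterol, 2 of 3 enzymes fell. FDFT1, the squalene synthase and the branch point that commits farnesyl diphosphate to sterols, had 1256, 1175 and 1222 in the control libraries and 1002, 905 and 1017 in the low-glucose libraries. Its low-glucose libraries were all lower, with a log2 fold change of -0.32 (SE 0.0787, limma adjusted p = 0.0062). The call of FDFT1 was lost without low glucose replicate 1 (0.0552), with quantile normalization (0.154) and with no variance trend (0.0639). The range was 0.000303 to 0.154 over 18 alternatives. SQLE, the squalene epoxidase and a slow step of the pathway, had 604, 567 and 505 in the control libraries and 393, 403 and 411 in the low-glucose libraries. The groups were clearly apart, with a log2 fold change of -0.47 (SE 0.0923, limma adjusted p = 0.00142) that passed in all 18 alternatives. LSS, which closes the ring to lanosterol, had 1429, 1506 and 1289 in the control libraries and 1538, 1480 and 1410 in the low-glucose libraries. These overlapped, and the log2 fold change of 0.07 (SE 0.0808, limma adjusted p = 0.558) had a 95% interval of -0.10 to 0.24. With quantile normalization LSS passed as higher (0.26, adjusted p 0.0176, range over 18 alternatives 0.0176 to 0.975).

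Of the 8 enzymes from lanosterol to cholesterol, 2 fell and 1 rose. EBP is the sterol isomerase (chromosome X, 48521799 to 48528716, plus strand of hg38). Its normalized counts were 363, 419 and 348 in the control libraries and 274, 276 and 252 in the low-glucose libraries. No low-glucose value reached a control value, and the log2 fold change of -0.49 (SE 0.103, limma adjusted p = 0.00228) passed in all 18 alternatives. EBP shares 644 bp of exon with another annotated gene on its own strand, which had at most 1 read. DHCR7, which catalyses a last reduction to cholesterol, had 697, 913 and 755 in the control libraries and 589, 609 and 651 in the low-glucose libraries. The control library of 10126218 reads was the highest, and the log2 fold change of -0.35 (SE 0.1, limma adjusted p = 0.0166) was lost without low glucose replicate 1 (0.0777) or 2 (0.0884), with a range of 0.00493 to 0.12 over 18 alternatives.

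MSMO1, the C-4 methylsterol oxidase, had 187, 156 and 182 in the control libraries and 210.4, 252 and 206 in the low-glucose libraries. The groups did not overlap but came close, with 206 against 187, and the log2 fold change of 0.35 (SE 0.124, limma adjusted p = 0.048) was the weakest of the calls. It was lost in 11 of 18 alternatives (range 0.0209 to 0.225), among them the fits without the control library of 9741183 or 10126218 reads (0.0639 and 0.0930), without low glucose replicate 1 or 2 (0.225 and 0.0898) or without the deepest low-glucose library (0.0729). The 5 remaining enzymes of this arm overlapped between the groups. They were CYP51A1, the lanosterol demethylase (0.10), TM7SF2, a sterol reductase (0.09), NSDHL, which acts with MSMO1 on the C-4 methyl groups (-0.04), HSD17B7, a ketosteroid reductase (-0.14), and SC5D, a desaturase (-0.14), with these log2 fold changes and limma adjusted p-values of 0.332 to 0.809. CYP51A1 and SC5D had group means of 80.3 to 89.3 normalized counts, which leaves wide 95% intervals of -0.29 to 0.48 and -0.48 to 0.20. CYP51A1 shares 2844 bp of its 4171 bp of exon with another annotated gene on its own strand, which had 0 reads. What this overlap does to the count of CYP51A1 was not tested.

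**Figure D2:**
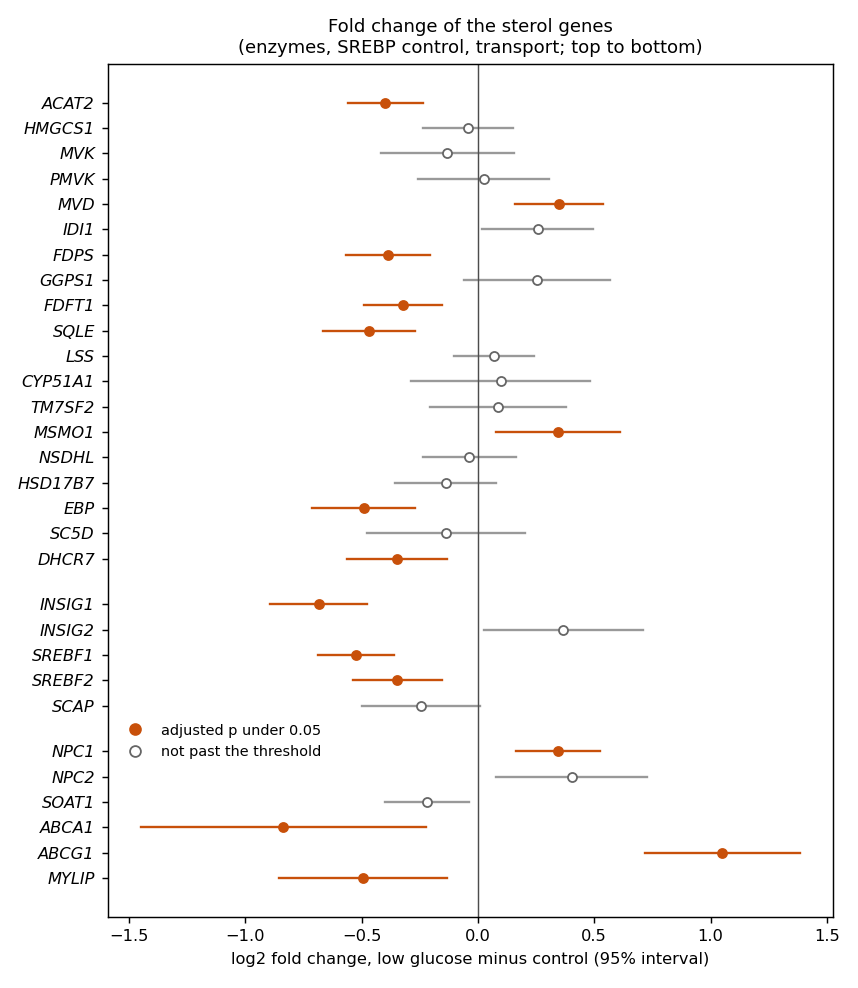
Log2 fold change of the 30 tested sterol genes, low glucose minus control (x axis), with 95% intervals from limma. Filled points have an adjusted p under 0.05. Among the enzymes, falls of -0.32 to -0.49 stand beside the rises of MVD and MSMO1 (both 0.35), and the widest interval is that of ABCA1.

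Of the 5 genes of SREBP control, 3 fell and 2 did not pass, where 42.7% of all genes whose mean reached 20 passed. INSIG1, which retains SCAP in the endoplasmic reticulum and is itself a well-known SREBP target, had normalized counts of 448, 432 and 411 in the control libraries and 254, 292 and 258 in the low-glucose libraries (chromosome 7, 155297776 to 155310235, plus strand of hg38). Its lowest control value was far above its highest low-glucose value. INSIG1 fell from 431 ± 18.9 (SD, n = 3) to 268 ± 21.3 (SD, n = 3), a log2 fold change of -0.68 (SE 0.0978, limma adjusted p = 0.000111) that is 1.61-fold lower and passed in all 18 alternatives. INSIG2, the second INSIG protein, which is not an SREBP target in most cells, had 86.3, 69.1 and 93.1 in the control libraries and 107, 112 and 100 in the low-glucose libraries. Its low-glucose values lay above all control values, 100 against 93.1 at the closest, but the log2 fold change of 0.37 (SE 0.16, limma adjusted p = 0.0977) did not pass. INSIG2 passed in 1 of 18 alternatives, without the control library of 10190154 reads (0.0457, range 0.0457 to 0.303).

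The balance of the INSIG pair differed between the groups. INSIG2 made up 16.1, 13.8 and 18.5% of the INSIG1 and INSIG2 reads in the control libraries and 29.6, 27.8 and 27.97% in the low-glucose libraries. The mean share was 16.1 ± 2.35% (SD, n = 3) in control and 28.5 ± 0.991% (SD, n = 3) in low glucose. By an exact two-sided permutation test p was 0.1, which is as low as 3 against 3 can go, so that this share cannot pass a threshold of 0.05 here. INSIG1 remained the more abundant in every library.

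SREBF1, the gene of the SREBP that mainly serves fatty acid synthesis, had 2518, 2889 and 2664 in the control libraries and 1886, 1897 and 1825 in the low-glucose libraries (chromosome 17, 17810399 to 17837002, minus strand of hg38). All low-glucose values were lower and close to each other, with a log2 fold change of -0.52 (SE 0.0759, limma adjusted p = 0.000125) that passed in all 18 alternatives. SREBF1 shares 556 bp of exon with RAI1 on the other strand, which had a mean of 673 normalized counts and fell by 0.31 on the log2 scale. SREBF2, whose product mainly drives the sterol enzymes, had 1336, 1535 and 1221 in the control libraries and 1103, 1030 and 1071 in the low-glucose libraries. It also fell, with a log2 fold change of -0.35 (SE 0.0889, limma adjusted p = 0.00837). SREBF2 no longer passed when low glucose replicate 1 was left out (0.0606), with quantile normalization and without the variance trend (range over 18 alternatives 0.000581 to 0.12). SREBF1 made up 65.3, 65.3 and 68.6% of the reads of both genes in control and 63.1, 64.8 and 63.0% in low glucose. The shares did not overlap but differed by little, with means of 66.4 ± 1.88% and 63.6 ± 1.01% (SD, n = 3 each) and an exact permutation p of 0.1, again the smallest possible.

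SCAP, the escort of both SREBPs, had 712, 982 and 676 in the control libraries and 620.4, 678 and 676 in the low-glucose libraries. The control library of 10126218 reads stood far above the others, and the groups overlapped. The log2 fold change of -0.24 (SE 0.119, limma adjusted p = 0.138) did not pass, and it did without the control library of 10190154 reads (0.0212) and with the GC trend removed (0.0362), in a range of 0.0212 to 0.496.

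**Figure D3:**
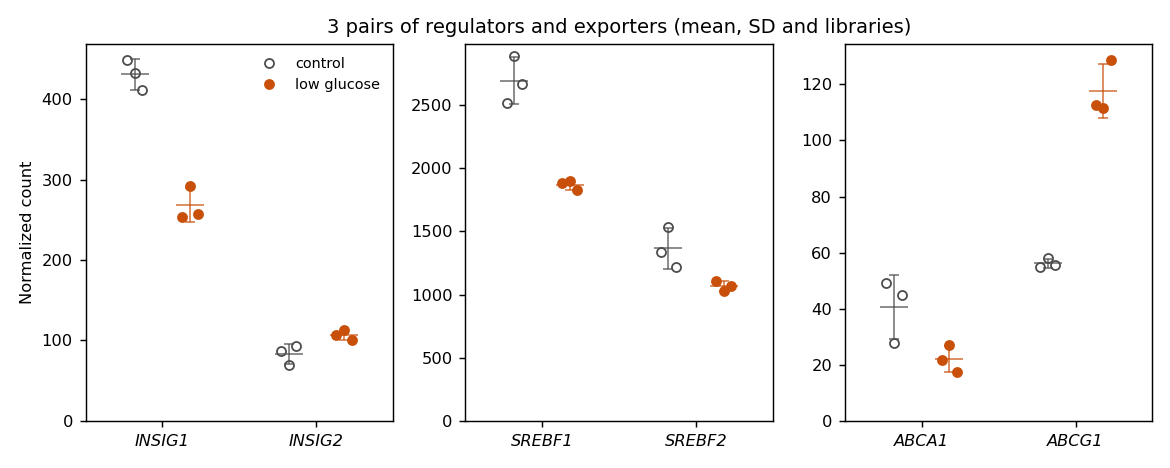
Normalized counts (y axes, from 0) of INSIG1 and INSIG2, SREBF1 and SREBF2, and ABCA1 and ABCG1 in control (open) and low-glucose (filled) libraries, with mean and SD (n = 3). INSIG1, SREBF1, SREBF2 and ABCA1 are lower in low glucose, ABCG1 is higher, and the INSIG2 points lie just above those of control.

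Promoter windows were searched for sites of SREBP, LXR and related factors. RefSeq windows (GRCh38.p14, 250 bases before to 50 bases after the start) were held for 27 of the 31 genes, as 36 windows, and not for ACAT2, FDFT1, SQLE and ABCG1. A sterol response element, searched like the motifs below on both strands, as TCACNCCAC, was found in 1 of the 36 windows, that of SREBF2, and in 1.13% of all 35116 windows. The E-box type of SREBP site, TCACNTGA, was found in the windows of INSIG1 and EBP and in 3.79% of all windows. The NF-Y box CCAAT was found in 22 of the 36 windows and in 34.6% of all. Both genes that rose among the enzymes, MVD and MSMO1, and enzymes that fell, such as FDPS, EBP and DHCR7, held this box. The ER stress response element (CCAAT and CCACG with 9 bases between, which includes the NF-Y box) and the LXR element (AGGTCA repeated after 4 bases) were in 0 of the 36 windows, with 0.0769 and 0.0199% of all windows. A match is letters in a window, not a bound site.

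The windows of INSIG1 (chr7:155297628-155297927), INSIG2 (chr2:118088221-118088520), SREBF2 (chr22:41832855-41833154) and EBP (chrX:48521558-48521857), all on the plus strand, are shown 5′ to 3′ because INSIG1, SREBF2 and EBP hold the SREBP-type matches, with INSIG2 as the partner of INSIG1. Capitals mark TCACGTGA in INSIG1, TCACCCCAC in SREBF2, TCAGGTGA in EBP and each NF-Y box (CCAAT or its complement ATTGG). INSIG2 had no match in this window.
INSIG1: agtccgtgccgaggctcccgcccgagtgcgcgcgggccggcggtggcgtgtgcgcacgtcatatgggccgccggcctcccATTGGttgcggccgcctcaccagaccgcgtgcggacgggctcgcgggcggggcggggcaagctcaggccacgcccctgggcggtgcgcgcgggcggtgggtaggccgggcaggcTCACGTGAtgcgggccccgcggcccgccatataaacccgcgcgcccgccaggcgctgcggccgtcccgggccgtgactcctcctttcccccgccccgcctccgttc
INSIG2: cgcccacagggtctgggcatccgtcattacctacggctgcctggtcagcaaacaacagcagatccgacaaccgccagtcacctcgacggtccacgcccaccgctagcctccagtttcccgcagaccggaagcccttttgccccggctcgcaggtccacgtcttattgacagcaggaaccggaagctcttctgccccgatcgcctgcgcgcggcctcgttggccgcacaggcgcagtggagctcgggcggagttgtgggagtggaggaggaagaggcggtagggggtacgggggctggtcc
SREBF2: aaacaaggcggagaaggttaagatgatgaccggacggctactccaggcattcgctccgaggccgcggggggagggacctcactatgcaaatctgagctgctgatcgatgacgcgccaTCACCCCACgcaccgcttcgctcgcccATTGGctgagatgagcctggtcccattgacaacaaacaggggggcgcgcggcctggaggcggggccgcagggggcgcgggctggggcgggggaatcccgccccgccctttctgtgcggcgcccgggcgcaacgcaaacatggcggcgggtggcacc
EBP: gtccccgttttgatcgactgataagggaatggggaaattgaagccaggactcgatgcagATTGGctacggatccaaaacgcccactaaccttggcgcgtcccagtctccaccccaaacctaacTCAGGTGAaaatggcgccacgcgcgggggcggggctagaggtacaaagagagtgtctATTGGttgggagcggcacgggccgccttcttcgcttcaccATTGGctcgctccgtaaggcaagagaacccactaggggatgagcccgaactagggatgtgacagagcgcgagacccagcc
The match in INSIG1 begins 56 bases before the start, that in SREBF2 133 bases and that in EBP 127 bases before it. No exact SREBP-type match was found in the windows of the other genes, whether they fell (FDPS, DHCR7, SREBF1, ABCA1 and MYLIP), rose (MVD, MSMO1 and NPC1) or did not pass. This does not show that these genes lack a site.

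Of the genes of transport, esterification and export, 2 rose, 2 fell and 2 of the 6 tested did not pass, again beside 42.7% that passed. ABCG1 exports cholesterol to lipoproteins (chromosome 21, 42199689 to 42297244, plus strand of hg38). Its normalized counts were 54.9, 58 and 55.6 in the control libraries and 113, 112 and 129 in the low-glucose libraries. Every low-glucose value lay far above every control value. ABCG1 rose from 56.2 ± 1.58 (SD, n = 3) to 118 ± 9.66 (SD, n = 3), a log2 fold change of 1.05 (SE 0.156, limma adjusted p = 0.000151) or 2.07-fold, and passed in all 18 alternatives.

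ABCA1, the exporter that loads lipid-poor apolipoproteins and like ABCG1 a textbook LXR target, moved the opposite way. Its normalized counts were 49.3, 27.9 and 44.9 in the control libraries and 21.7, 26.9 and 17.4 in the low-glucose libraries. The lowest control value, in the library of 10126218 reads, was almost reached by the highest low-glucose value. ABCA1 fell with a log2 fold change of -0.84 (SE 0.286, limma adjusted p = 0.0381). This rests on 25 to 44 control reads against 22 to 28 under low glucose, and the call was lost in 9 of 18 alternatives (range 0.00423 to 0.146). Among these were the fits without the control library of 9741183 or 10190154 reads (0.146 and 0.0865), without low glucose replicate 1 or 2 (0.0533 and 0.0960) or without the deepest low-glucose library (0.144), scaling by library size (0.0617) and DESeq2 (0.0599). ABCG1 took 52.7, 67.5 and 55.3% of the ABCG1 and ABCA1 reads in control and 83.8, 80.6 and 88.1% in low glucose, a pair set side by side after its values were seen and so given without a test.

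MYLIP, the ligase that marks lipoprotein receptors for degradation and another LXR target, had 116, 98.1 and 111 in the control libraries and 64.2, 92.3 and 75 in the low-glucose libraries. Its low-glucose values were all lower, with a log2 fold change of -0.50 (SE 0.169, limma adjusted p = 0.0375). The call of MYLIP was lost in 7 of 18 alternatives (range 0.011 to 0.171), among them the fits without the control library of 9741183 or 10190154 reads (0.119 and 0.0598), without low glucose replicate 2 (0.171), without the deepest low-glucose library (0.107) and scaling by library size (0.0812). The LXR targets named so far thus did not share a direction, with ABCG1 higher and ABCA1 and MYLIP lower. Further LXR targets also went both ways. LPCAT3, given below, was lower, and PLTP was higher (log2 fold change 0.58, limma adjusted p = 0.000145). PLTP shares 329 bp of exon with CTSA on the other strand, which rose by 0.28 on the log2 scale. LXR targets were not listed as a set, so these names give no tally.

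NPC1 and NPC2 hand lipoprotein-derived cholesterol out of lysosomes, NPC2 as the soluble and NPC1 as the membrane protein. NPC1 had 604, 662 and 574 in the control libraries and 778, 804 and 752 in the low-glucose libraries. All low-glucose values were higher, with a log2 fold change of 0.34 (SE 0.0843, limma adjusted p = 0.00624), and leaving out the variance trend ended the call (0.0587, range over 18 alternatives 0.000126 to 0.0587). RMC1, which shares 619 bp of exon with NPC1 on the other strand, had a mean of 325 normalized counts and rose by 0.43 on the log2 scale. NPC2 had 557, 374 and 662 in the control libraries and 714, 666 and 673 in the low-glucose libraries. The control library of 10126218 reads held the lowest value and the groups did not overlap, with 666 against 662 at the closest, and the log2 fold change of 0.40 (SE 0.151, limma adjusted p = 0.0568) did not pass. NPC2 passed without the control library of 10190154 reads (0.00134), with scaling by library size (0.0327) and with quantile normalization (0.0205), in a range of 0.00134 to 0.255.

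SOAT1, which esterifies cholesterol for storage in droplets, had 845, 894 and 825 in the control libraries and 675, 754 and 778 in the low-glucose libraries. All low-glucose values were lower, but the log2 fold change of -0.22 (SE 0.084, limma adjusted p = 0.0627) did not pass. SOAT1 passed without the control library of 10190154 reads (0.0372), with the length trend removed (0.0264) and with at least 10 reads required in every library (0.0465), in a range of 0.0264 to 0.432 over 18 alternatives. Without that control library, 18 of the 30 genes passed, IDI1, INSIG2, SCAP, NPC2 and SOAT1 among them.

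Around these genes, 68 further genes of sterol biology were read from lists written by role, with earlier results of these data known. Of these, 63 were tested, with 12 higher and 17 lower in low glucose (limma), and ABCG5, ABCG8, CYP27A1, CYP7B1 and CH25H had at most 3 reads in any library. The share that passed was 46.0%, against 30.9% of all genes tested and 42.7% of those whose mean reached 20. By list, in the order below, it was 35.3, 43.8 and 53.3%. In the list of other enzymes and isoprenoid branches, 6 of 17 fell and 0 rose in limma (0 rose at an unadjusted p under 0.05, 0 with edgeR or DESeq2, 1 with scaling by library size, and 2 with quantile normalization or without the control library of 10126218 reads). LBR, a nuclear membrane protein that is also a sterol reductase like TM7SF2, had 1043, 984 and 1068 in the control libraries and 619, 623 and 658 in the low-glucose libraries. It was lower in every low-glucose library, with a log2 fold change of -0.70 (SE 0.0785, limma adjusted p = 1.33e-05). ICMT, which methylates prenylated proteins, fell by 0.67 on the log2 scale (limma adjusted p = 2.15e-05). PDSS2, for the side chain of ubiquinone, fell by 0.38 on the log2 scale (limma adjusted p = 0.0152, up to 0.0839 over 18 alternatives). Its call was lost without the control library of 9741183 reads, without low glucose replicate 1 or 2 and with no variance trend.

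Of 16 further genes of SREBP and LXR control, 6 fell and 1 rose. RNF145, a sterol-responsive ubiquitin ligase, had 904, 931 and 996 in the control libraries and 579.9, 480 and 574 in the low-glucose libraries. It fell with a log2 fold change of -0.80 (SE 0.0921, limma adjusted p = 1.77e-05). TMEM97, a sterol-binding membrane protein, fell by 0.50 on the log2 scale (limma adjusted p = 0.00052). NR1H2, which encodes the widely expressed LXR beta, had 484, 515 and 553 in the control libraries and 707, 719.5 and 729.7 in the low-glucose libraries. It rose with a log2 fold change of 0.48 (SE 0.084, limma adjusted p = 0.000619), while NAPSA, on the other strand of 1182 bp of its exons, had at most 23 reads. RXRA, a partner of LXRs, fell by 0.38 on the log2 scale (limma adjusted p = 0.00585).

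Of 30 tested genes of other transport, uptake and turnover, 11 rose and 5 fell. The rises numbered 6 without the control library of 9741183 reads or low glucose replicate 1, and 7 without low glucose replicate 2 or the deepest low-glucose library, with 4 or 5 falls. With at least 10 reads required in every library, 21 of these genes were tested, with 8 rises and 5 falls. Their median log2 fold change was then 0.03, in place of 0.20 for the 30. VLDLR, a receptor for triglyceride-rich lipoproteins, had 78.5, 84.7 and 83.5 in the control libraries and 242, 229 and 264 in the low-glucose libraries. It rose 2.95-fold, with a log2 fold change of 1.56 (SE 0.125, limma adjusted p = 6.83e-07). VLDLR-AS1, which shares 260 bp of exon with VLDLR on the other strand, had 24 to 32 control reads against 63 to 83 under low glucose. Another gene on that strand shares 1100 bp of exon with VLDLR and had 12 to 21 control reads against 32 to 58. OSBPL6, an oxysterol-binding protein, rose by 0.66 on the log2 scale (limma adjusted p = 0.00135). NCEH1, a hydrolase of cholesteryl esters, had 2408, 2739 and 2331 in the control libraries and 1508, 1399 and 1647 in the low-glucose libraries. It fell with a log2 fold change of -0.71 (SE 0.0865, limma adjusted p = 2.61e-05), and LPCAT3, an acyltransferase of phospholipids and an LXR target, fell by 0.61 on the log2 scale (limma adjusted p = 0.000163). LPCAT3 shares 3096 bp of its 4693 bp of exon with EMG1 on the other strand. EMG1 had a mean of 1391 normalized counts and fell by 0.28 on the log2 scale. How much of the LPCAT3 count is shared reads was not tested.

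**Figure D4:**
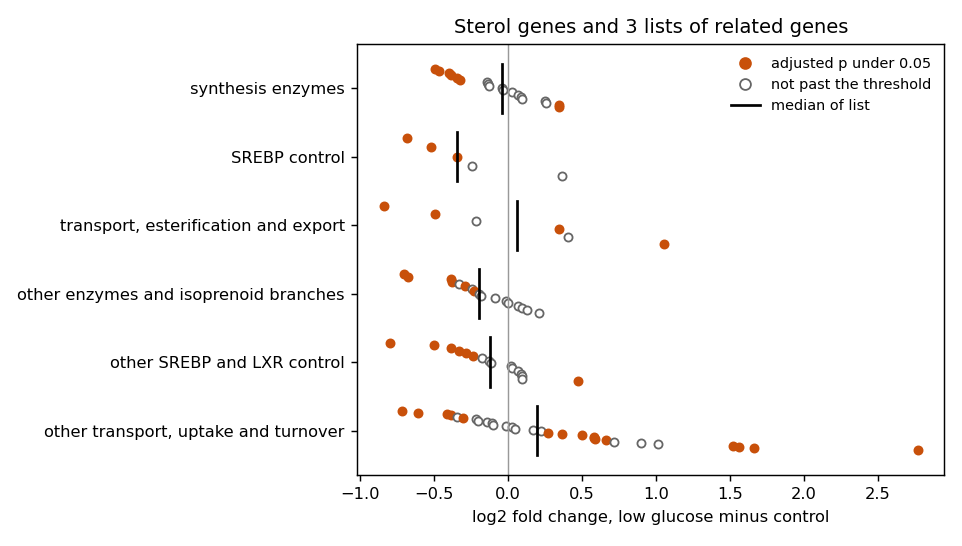
Log2 fold change, low glucose minus control (x axis), of the 30 tested sterol genes (upper 3 rows) and of 63 related genes (lower 3 rows). Filled points passed the threshold and black bars are medians, from -0.35 for SREBP control to 0.20 for other transport, uptake and turnover. With at least 10 reads required in every library, that last median was 0.03. The point farthest to the right is NPC1L1, with at most 1 read per control library and 10 to 12 in low glucose.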

How the data were processed

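RNA-seq libraries of MiaPaCa-2 cells (3 low glucose, 3 control) were analysed from 1 deposited table. The authors trimmed reads with Trim Galore, mapped them to hg38 with STAR (2.7.0e) and used DESeq2. The libraries were strand-specific. The study's software list also names RSEM, without tying it to this table. Which tool counted these reads, its strand setting and the annotation are not given in the sources used here. The deposited values are a signal, namely counts divided by the authors by a size factor per library. All values were whole multiples of that of 1 read (tolerance 0.01, 100% in every library), so reads were recovered. The 3 libraries per group and 9741183 to 13733477 reads set the precision. Columns were tied by their names to low glucose replicates 1 and 2. For the other 4, no label gives the replicate, and the group was read from the run of column names they belong to and the order of groups in the table's title, which is an assumption. Symbols, positions and exon lengths are from Gencode v44 (99.4% of identifiers matched). The series text calls the replicates independent biological replicates.

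Values as log2(value + 1) for 21101 genes with a mean of at least 1 were compared with limma 3.58.1 in R 4.3.3 (lmFit, eBayes with trend, two-sided), with Benjamini-Hochberg adjustment over all of them and a threshold of 0.05. A fold change on this scale understates that of low genes. All 31 genes are named, and of each further list the 4 largest called changes among genes whose mean reached 10 and whose groups did not overlap, except 1 that is not reported here. NPC1L1, PLTP, genes on the other strand and untested genes were named after their values were seen. The genes, lists, motifs and tests were chosen with earlier results of these data known, so nothing here is independent of them.

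Alternatives were scaling by library size, TMM factors, quantile normalization, dropping the filter, a minimum mean of 5, a minimum of 10 reads per library, a pseudocount of 0.1, no variance trend, edgeR 4.0.16 and DESeq2 1.42.0 on the recovered reads, each library left out in turn, and, chosen after seeing the data, a trend with gene length or GC content removed (loess, span 0.3). The fits were also run on simulated counts with the same dispersion for every gene and changes larger than those of most sterol genes. That run does not tell how reliable calls of the size seen here are. Shares were compared with exact permutation tests. Python 3.11.15 with pandas 2.3.3 and numpy 2.4.6 joined the tables, and matplotlib 3.10.9 drew the plots.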

Additional observations from a re-analysis of the deposited data

How the results depend on the processing

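No paired analysis was possible because replicate numbers are known for low glucose replicates 1 and 2 alone. Of the 15 sterol genes that passed, 6 (ACAT2, SQLE, EBP, INSIG1, SREBF1 and ABCG1) passed in all 18 alternatives, and the other 9 lost the call in at least 1 while 0 of the 15 changed direction. Of the 15 that did not pass, 6 passed in some alternative. The cause of these shifts was not tested.

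Without the variance trend, 4090 genes passed in place of 6528, with 3 in place of 8 synthesis enzymes, 1 in place of 4 transport genes, 2 in place of 6 other enzymes, 3 in place of 7 other control genes and 10 in place of 16 other transport genes. DESeq2 gave 2 transport genes, and library size 4 other control genes. Library size also gave 3935 genes higher and 2647 lower, in place of 3111 and 3417. Leaving out 1 library gave 4319 (without low glucose replicate 1) to 7251 genes, 4 (without low glucose replicate 1) to 9 synthesis enzymes, 2 to 5 genes of SREBP control (5 without the control library of 10190154 reads), 2 to 4 transport genes (2 without the control library of 9741183 reads, low glucose replicate 2 or the deepest library), 3 (without low glucose replicate 2) to 8 other enzymes, 4 to 8 other control genes (4 without the control library of 9741183 reads or low glucose replicate 1 or 2) and 10 (without low glucose replicate 1) to 18 other transport genes.

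Directions that changed belonged to genes near 0, none past the threshold. With library size, HMGCS1 moved to 0.0389 and NSDHL to 0.0442. With quantile normalization, HMGCS1 moved to 0.0144, PMVK to -0.0125, CYP51A1 to -0.0489 and NSDHL to 0.0099. With the length trend removed PMVK moved to -0.11, and with the GC trend removed PMVK moved to -0.0593, LSS to -0.0044 and TM7SF2 to -0.0339. Leaving out 1 library gave ranges of -0.0856 to 0.0074 for HMGCS1, -0.0823 to 0.158 for PMVK, -0.0084 to 0.25 for CYP51A1, -0.0547 to 0.189 for TM7SF2 and -0.0906 to 0.0208 for NSDHL. With 3 libraries a group, changes under about 0.3 on the log2 scale were mostly not called for these genes.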
